A study of Mus musculus with 111 samples.

Results

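Ptger4, Ric8b, Rgs11, Arhgdig and Irak3 are 5 of the 36134 genes measured in single mouse 2-cell embryos, and 5 of the 13448 that passed a filter on low counts. They were chosen by their measured counts, which summed over transcripts were lower in embryos injected with siRNAs against the nuclear receptor Nr5a2 than in control embryos, and by their roles in signalling from receptors or through GTPases. The difference between the arms chose them, so it is given here as a description and carries no test. Of the 5, Ptger4 encodes a receptor, and the proteins of Ric8b and Rgs11 act on heterotrimeric G proteins. Arhgdig acts on small GTPases and Irak3 on signalling from Toll and interleukin-1 receptors, so these last 2 do not belong to heterotrimeric G protein signalling itself.

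All embryos were of strain B6129F1 and came from germinal vesicle oocytes. In the knockdown arm the oocytes received a set of 2 siRNAs against Nr5a2, each at 20 µM, together with 150 ng/µl of H2B-rsEGFP RNA. In the control arm they received control siRNAs and 150 ng/µl of H2B-EGFP RNA, so injection was common to both arms and the marker RNA differed between them. Every oocyte was held for 5 hours in medium with dbcAMP, which keeps oocytes arrested, then matured for 12 hours without it, fertilized in vitro and cultured in KSOM. Each library was made from 1 embryo with SmartSeq2 and oligo dT priming, which records polyadenylated RNA without molecular identifiers or strand. There were 24 control and 16 knockdown embryos in experiment 1, 7 and 16 in experiment 2, and 25 and 23 in experiment 3, which is 56 against 55. Litters are not named in the labels, and each embryo was taken as 1 sample. The control embryo numbered 1 in experiment 2 is not analysed here.

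Libraries held 1.96 to 21.2 M estimated counts (M, mega); the median was 4.95 M for controls and 4.51 M after knockdown. The targeted gene had a median of 114 counts per M (CPM) in control and 51.4 CPM in knockdown embryos of experiment 1, 102 and 47.2 CPM in experiment 2, and 76.8 and 42.3 CPM in experiment 3. Oocyte transcripts, which a 2-cell embryo inherits, summed to a median of 16361 CPM in controls and 16063 CPM in knockdown embryos. The 20 cumulus and granulosa cell markers summed to 32.7 to 179 CPM (median 76.6) in controls and 35.2 to 419 CPM (median 77.4) in knockdown embryos, and 13 of them had a median of 0. The 12 leukocyte markers summed to 4.01 to 47.6 CPM (median 16.0) and 3.87 to 61.3 CPM (median 18.3), with 5 at a median of 0. The 10 sperm markers summed to 97.9 to 345 CPM (median 187) and 75.6 to 571 CPM (median 189), with 6 at a median of 0 and Prm3 at 0 in every embryo. No cumulus, granulosa, leukocyte or sperm marker passed the edgeR quasi-likelihood test of knockdown against control, in which 4, 4 and 1 of them had enough counts to be tested. That test called 0.468% of all genes lower and 0.632% higher, so the absence of a call among so few markers says little. RNA of the mitochondrial genome did differ: all 13 of its transcripts had a positive log2 fold change, 6 of them passed the edgeR test, and their sum had a median of 68872 CPM in controls and 76135 CPM in knockdown embryos. The part of this difference in the values of the 5 genes was not tested.

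Prostaglandin E receptors and many other receptors of the same class pass their signal to heterotrimeric G proteins inside the cell. A bound receptor makes the alpha subunit exchange GDP for GTP, RGS proteins speed the return to GDP, and chaperones of the Ric8 family help newly made alpha subunits fold. Alpha subunits of the stimulatory class switch on adenylyl cyclases and raise cyclic AMP, the molecule that holds the mouse oocyte in prophase of meiosis. The small GTPases that organise the actin cortex and the cleavage furrow cycle between GDP and GTP in a similar way and are kept soluble by dissociation inhibitors. Nr5a2 belongs to the nuclear receptors and, unlike most of them, recognises its DNA motif as a single molecule.

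The 5 genes lie at 4 loci in the GENCODE M21 annotation of GRCm38. Ptger4 (ENSMUSG00000039942) spans chr15:5206661-5244187 on the minus strand, Ric8b (ENSMUSG00000035620) chr10:84917616-85018337 on the plus strand and Irak3 (ENSMUSG00000020227) chr10:120141648-120202130 on the minus strand. Rgs11 (ENSMUSG00000024186), on the plus strand at chr17:26202951-26211324, and Arhgdig (ENSMUSG00000073433), on the minus strand at chr17:26199183-26207786, overlap in opposite directions. Their exons share 138 bases, which are 3.28% of the exon bases of Rgs11 and 8.81% of those of Arhgdig, in the 2 stretches printed here because reads from them cannot be told apart without strand. They are written on the plus strand, 5′ to 3′, from the GENCODE M21 transcripts, and all 138 bases are coding in Rgs11 and belong in Arhgdig to a transcript with no coding part (ENSMUST00000176847.7).
Shared stretch at chr17:26207550-26207659: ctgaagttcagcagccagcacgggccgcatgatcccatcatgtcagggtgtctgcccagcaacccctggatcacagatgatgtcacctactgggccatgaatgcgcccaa
Shared stretch at chr17:26207759-26207786: cgtggctgcccccacaaaactccgcgtt
Exons also overlap at 2 other loci. Ptger4 shares exon bases with Ttc33 (82) and Gm15937 (1015) through ENSMUST00000133966.1 alone, and Irak3 shares 192 with Tmbim4 and 28 with Gm47009.

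RefSeq start sites (GRCm38.p6) were matched for 3 of the 5 genes, Ptger4, Ric8b and Irak3, and not for Rgs11 and Arhgdig. The windows below run from 250 bases before to 50 after the start, in the direction of the gene, and are shown because Nr5a2, the targeted gene, encodes a protein that binds DNA. 2 spellings of its motif were searched on both strands, TCAAGGNCA and the shorter CAAGGNCA that it contains. The longer one is in 1.62% of the 32851 windows of all genes and the shorter one in 6.71%. Capitals mark the single match, CAAGGGCA, which lies 48 to 41 bases before 1 RefSeq start of Irak3, at chr10:120201597. In GENCODE M21 the Irak3 transcript ENSMUST00000020448.10 begins farther upstream, at 120201659. Tmbim4 begins at 120201590 on the other strand, and the match lies inside the spans of both.
Irak3 at chr10:120201548-120201847, minus strand: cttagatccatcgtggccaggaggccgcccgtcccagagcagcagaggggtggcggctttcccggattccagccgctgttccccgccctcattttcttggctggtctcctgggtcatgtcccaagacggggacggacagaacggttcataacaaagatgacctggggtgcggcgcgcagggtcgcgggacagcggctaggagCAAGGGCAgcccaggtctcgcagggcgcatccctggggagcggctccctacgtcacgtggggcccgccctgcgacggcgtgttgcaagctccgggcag
Ptger4 at chr15:5244138-5244437, minus strand: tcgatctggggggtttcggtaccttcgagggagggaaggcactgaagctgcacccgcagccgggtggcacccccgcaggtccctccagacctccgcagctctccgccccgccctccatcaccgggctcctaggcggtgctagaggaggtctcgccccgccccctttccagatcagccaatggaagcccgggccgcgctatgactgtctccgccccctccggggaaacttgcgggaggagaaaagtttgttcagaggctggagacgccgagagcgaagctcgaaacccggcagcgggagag
Ric8b at chr10:84917363-84917662, plus strand: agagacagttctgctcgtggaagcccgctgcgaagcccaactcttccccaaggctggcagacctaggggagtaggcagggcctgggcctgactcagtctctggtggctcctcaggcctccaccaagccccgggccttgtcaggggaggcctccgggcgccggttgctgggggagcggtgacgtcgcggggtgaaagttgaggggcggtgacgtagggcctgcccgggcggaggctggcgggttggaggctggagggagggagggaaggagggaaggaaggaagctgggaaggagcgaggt
G and C made up 67.3% of the Irak3 window, 67.0% of the Ptger4 window and 68.3% of the Ric8b window, beside a median of 52.7% over all windows. A second RefSeq start of Irak3, at chr10:120202081-120202380, has 46.7% and no match. A match describes letters and not a bound site, and the absence of one says only that these letters are not in the window.

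Ptger4, the prostaglandin E receptor that couples to the stimulatory G protein, had a median of 23.1 CPM (7.80 to 78.6) in control and 10.7 CPM (1.53 to 64.6) in knockdown embryos of experiment 1. In experiment 2 the medians were 36.1 CPM (15.4 to 68.4) and 19.1 CPM (5.18 to 39.8). In experiment 3 they were 23.5 CPM (3.53 to 77.9) and 13.8 CPM (4.49 to 79.2). The knockdown median was the lower one in all 3 experiments and the ranges of the arms overlapped in each, with the highest single embryo of all in the knockdown arm. Its mean ± SD over the 56 controls was 29.8 ± 19.8 CPM and over the 55 knockdown embryos 17.4 ± 14.6 CPM. The log2 fold change, here and below that of knockdown over control, was -0.82 (SE 0.20).

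Ric8b, whose protein is a chaperone and exchange factor for stimulatory alpha subunits, was much less abundant. Its medians in experiment 1 were 5.25 CPM (0.132 to 15.6) in control and 2.27 CPM (0 to 5.22) in knockdown embryos. In experiment 2 they were 1.64 CPM (1.00 to 14.4) and 1.72 CPM (0 to 6.51), so there the knockdown median was not below the control median. In experiment 3 they were 3.29 CPM (0 to 49.8) and 1.65 CPM (0 to 13.0). High single embryos stretched the control range in experiments 2 and 3. Means ± SD were 5.99 ± 7.89 CPM over 56 controls and 2.20 ± 2.27 CPM over 55 knockdown embryos, and the log2 fold change of -1.36 (SE 0.33) had both the largest size and the largest SE of the 5.

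Rgs11, which encodes a GTPase-activating RGS protein that works in a complex with the beta subunit Gnb5, had medians of 14.8 CPM (4.67 to 40.9) and 8.65 CPM (2.11 to 35.0) in experiment 1. In experiment 2 the medians were 26.7 CPM (15.5 to 43.8) and 16.3 CPM (2.86 to 23.4). In experiment 3 they were 27.5 CPM (1.77 to 82.5) and 12.6 CPM (4.20 to 68.3). In experiment 2 all 16 knockdown embryos lay below the control median, and in experiment 1 only 9 of 16 did. Means ± SD over the same 56 and 55 embryos were 24.7 ± 16.2 and 15.4 ± 10.8 CPM, and the log2 fold change was -0.69 (SE 0.18). Over the transcripts of Rgs11 that share no 31-base word with Arhgdig, the log2 fold change was -0.34, and the gene then fell outside the threshold (edgeR adjusted p = 0.819). This leaves out whole transcripts, among them both protein-coding ones and ENSMUST00000155072.7 with 43.4% of the counts. Of the 31-base words of Rgs11, 1.80% are shared with Arhgdig. The part of the shared stretches in the smaller value was not tested.

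Arhgdig, the gamma member of the GDP dissociation inhibitors of small GTPases, had medians of 5.34 CPM (0 to 11.8) in control and 1.68 CPM (0.222 to 8.69) in knockdown embryos of experiment 1. In experiment 2 the medians were 3.16 CPM (0 to 12.3) and 3.00 CPM (0 to 6.53). In experiment 3 they were 6.23 CPM (0.544 to 15.7) and 2.77 CPM (0 to 20.1). The medians were close in experiment 2, where 9 of 16 knockdown embryos lay below the control median, while the means ± SD there were 5.91 ± 5.10 CPM (n = 7) and 3.21 ± 2.10 CPM (n = 16). Its means ± SD were 6.18 ± 4.25 CPM (n = 56) and 3.27 ± 3.21 CPM (n = 55), and the log2 fold change was -0.95 (SE 0.26). Over the transcripts that share no 31-base word with Rgs11 it was -0.98.

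Irak3, the member of the interleukin-1 receptor associated kinase family that restrains Toll and interleukin-1 receptor signalling, had medians of 6.09 CPM (0.755 to 15.3) and 2.23 CPM (0 to 5.79) in experiment 1. In experiment 2 they were 3.33 CPM (2.61 to 7.75) and 0.710 CPM (0 to 4.18). In experiment 3 they were 3.31 CPM (0.472 to 12.2) and 2.73 CPM (0.463 to 10.5). Every knockdown embryo of experiment 1 lay below the control median, against 13 of 23 in experiment 3. Irak3 averaged 5.21 ± 3.58 CPM (± SD, n = 56) and 2.66 ± 2.41 CPM (n = 55), and the log2 fold change was -0.90 (SE 0.24).

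**Figure D1:**
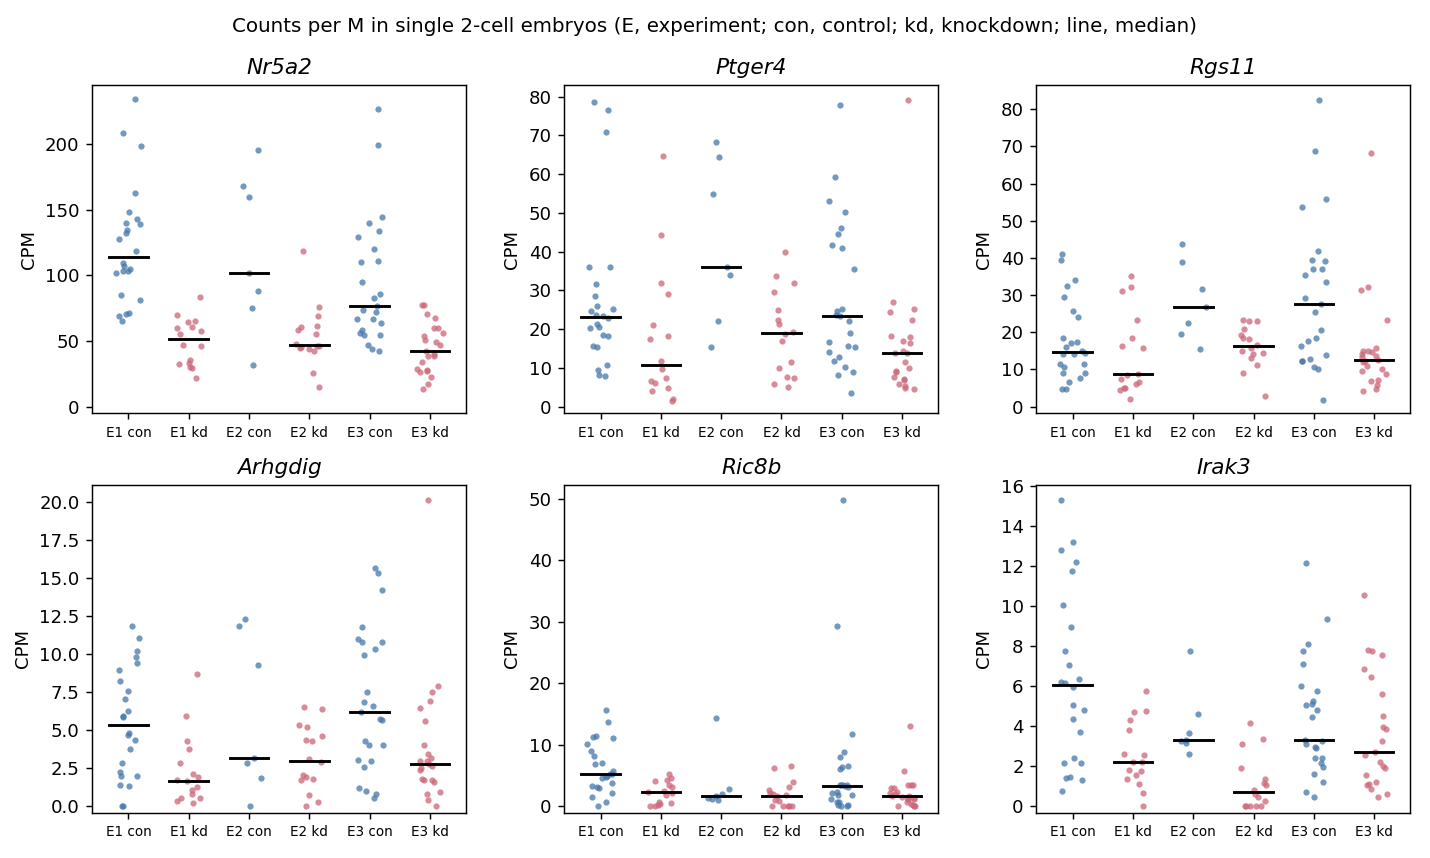
Counts per M (CPM, linear axis, a separate scale for each gene) of Nr5a2 and the 5 genes in each of 111 embryos, by experiment (E) and arm, with the group median as a line. The arms overlap for every gene, and the knockdown median is below the control median in each experiment except for Ric8b in experiment 2 (1.72 against 1.64 CPM).

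Counts of 0 occurred for Ric8b, Arhgdig and Irak3 in a few embryos, and never for Ptger4 or Rgs11. Ric8b was at 0 in 2 of 56 control and 9 of 55 knockdown embryos, Arhgdig in 3 and 2, and Irak3 in 0 and 6. A count of 0 allowed a level of up to 0.389 to 1.45 CPM, depending on the library (3 counts, counting error only), so for these 3 genes an embryo at 0 could not be told from one at the lower values above. Values are shares of the RNA of an embryo, so fewer molecules of a gene and more of other RNA cannot be told apart.

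Of all 13448 genes tested with edgeR's quasi-likelihood test, 0.468% were called lower in knockdown embryos (63 genes) and 0.632% higher (85 genes) at an adjusted p under 0.05, a split that became 69 and 58 when libraries were scaled by their totals alone. All 5 genes are among the lower ones by the way they were chosen. Their adjusted p-values in that edgeR fit ran from 0.0135 for Ptger4 to 0.0385 for Arhgdig, the last called gene of the whole fit was at 0.0486 and the first gene outside at 0.0521. With 1 experiment left out, Rgs11 alone of the 5 stayed inside the threshold without experiment 1, Ric8b alone without experiment 2 and Irak3 alone without experiment 3, where its log2 fold change was -1.46. Without control embryo 6 of experiment 2, Irak3 was outside (log2 fold change -0.83) and the other 4 inside.

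Many single knockdown embryos were low for several of the 5 genes at once. Against the control median of the same experiment, 46 of 55 knockdown embryos were lower for Ptger4, 45 for Rgs11, 42 for Ric8b, 41 for Arhgdig and 43 for Irak3. At least 4 of the 5 genes were low in 41 of 55 knockdown and in 11 of 56 control embryos, and all 5 in 15 and 3. No knockdown embryo was low for fewer than 2 of them, while 4 control embryos were low for none and 10 for 1. These counts rest on the difference that chose the genes and describe its spread over embryos. Control embryos were scored against the median of their own group, which fixes how many fall below it for each gene. Whether the 5 genes were low together beyond their separate rates was not tested.

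The choice used the mean difference between the arms but not how it varied between experiments. The log2 fold changes in experiments 1, 2 and 3 were -0.67 (SE 0.34), -1.13 (SE 0.45) and -0.80 (SE 0.30) for Ptger4. For Rgs11 they were -0.34 (SE 0.30), -0.81 (SE 0.40) and -0.93 (SE 0.27). For Arhgdig they were -1.20 (SE 0.45), -0.87 (SE 0.59) and -0.80 (SE 0.38). All values of these 3 genes were negative, and that of Rgs11 in experiment 1 was close to its SE. Ric8b had -1.52 (SE 0.56), -0.78 (SE 0.74) and -1.43 (SE 0.48), and without control embryo 6 of experiment 2, at 14.4 CPM, the value of that experiment was 0.27 (SE 0.83), so its direction there rested on 1 library. Irak3 had -1.31 (SE 0.41), -1.80 (SE 0.54) and -0.21 (SE 0.35), the widest range of the 5 over all embryos; without the same control embryo its value in experiment 2 was -1.56 and the range of Ric8b was the wider. In the edgeR test of treatment by experiment, 0.0149% of the genes were called, 2 in number (H2bc21 and Prr15, named after their values were seen), and 5.65% had an unadjusted p under 0.05. None of the 5 genes passed it (adjusted p from 0.862 to 0.991), and Irak3 alone of them had an unadjusted p under 0.05 (0.0239).

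**Figure D2:**
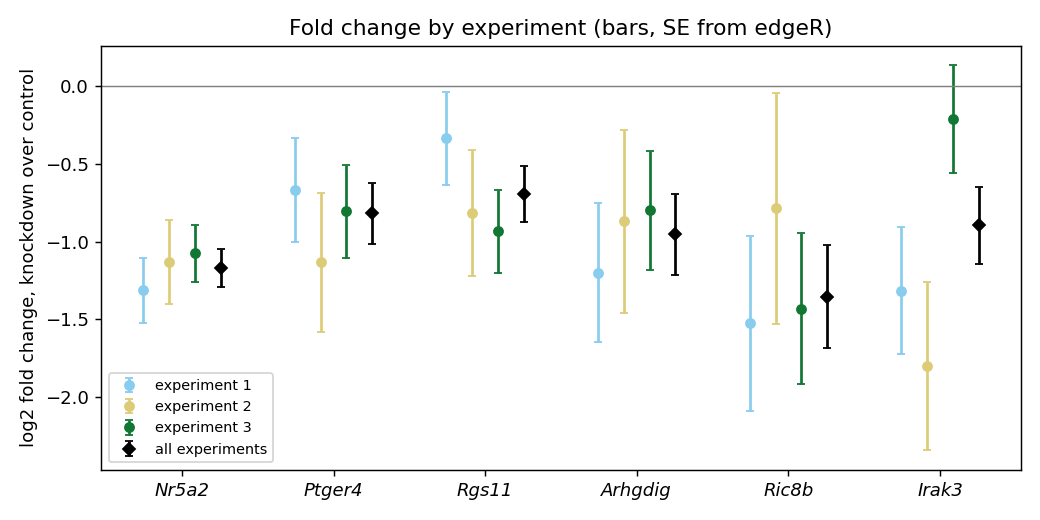
Log2 fold change of knockdown over control for Nr5a2 and the 5 genes, within each experiment (circles) and over all experiments (diamonds), with bars of 1 SE from edgeR. All values are below 0, Irak3 in experiment 3 lies closest to it at -0.21, and that of Ric8b in experiment 2 is 0.27 without 1 control embryo.

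The level of the 5 genes without knockdown was compared among the control embryos of the 3 experiments. Over 16127 genes, 10.7% differed between experiments by the edgeR test with 2 degrees of freedom. None of the 5 passed it, with adjusted p-values of 0.0839 for Rgs11, 0.369 for Irak3, 0.499 for Ptger4, 0.716 for Ric8b and 0.804 for Arhgdig. In data simulated for that test, 50.5% of 200 features changed 2-fold in experiment 1 were called, so it can miss differences of this size. Of the 15 comparisons of 2 experiments, 1 passed edgeR's adjustment over the genes: control embryos of experiment 1 had less Rgs11 than those of experiment 3 (log2 difference -0.77, SE 0.25, adjusted p = 0.0436), in a comparison in which 9.07% of genes were called, beside 1.55% between experiments 2 and 3 and 4.71% between 1 and 2. Rgs11 had 17.9 ± 10.7 CPM (SD, n = 24) in controls of experiment 1 and 30.1 ± 19.6 CPM (SD, n = 25) in those of experiment 3. Experiment 1 is also the one with its smallest fold change. The control level is the denominator of that fold change, so these are not separate observations.

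Per length, in transcripts per M (TPM), Rgs11 was the most abundant of the 5 in control embryos, with a median of 23.9 TPM, followed by Ptger4 (12.3), Arhgdig (9.93), Irak3 (3.52) and Ric8b (2.28). Nr5a2 itself was at 84.0 TPM. Neighbours in this order overlapped in their ranges. Rgs11 was above Ptger4 in 40 of 56 control embryos, Ptger4 above Arhgdig in 33, Arhgdig above Irak3 in 44 and Irak3 above Ric8b in 38. Ranked among the 17701 genes with a median above 0 TPM, Rgs11 stood at 5276, Ptger4 at 7331, Arhgdig at 8012, Irak3 at 11092 and Ric8b at 12279. Transcripts of a gene differ in length, so these levels depend on how the estimated counts were divided among them.

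The counts of Rgs11, Arhgdig and Ptger4 came mostly from 1 or 2 of their annotated transcripts. For Rgs11, 43.4% of counts were assigned to ENSMUST00000155072.7 and 41.1% to ENSMUST00000139639.1, both retained-intron transcripts of the 3′ part of the gene with 1331 and 1241 bases and no coding part. The 2 protein-coding transcripts of Rgs11 held 3.02% and 0.600% of its counts. ENSMUST00000155072.7, which includes the stretches shared with Arhgdig, averaged 11.4 ± 8.19 CPM over controls and 5.81 ± 4.32 CPM over knockdown embryos (± SD, n = 56 and 55), which gave -1.01 (SE 0.25) on the log2 scale. ENSMUST00000139639.1, which includes none of them, averaged 9.42 ± 8.72 and 7.08 ± 7.23 CPM, which gave -0.39 (SE 0.32). Of these leading transcripts, the one with the shared stretches had the larger difference between the arms, and the division of counts between them is the authors' estimate.

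Arhgdig was simpler, with 72.3% of counts on the protein-coding ENSMUST00000025019.8, which has 1032 bases and lies outside the overlap. This transcript averaged 4.66 ± 3.42 CPM over 56 controls and 2.31 ± 2.47 CPM over 55 knockdown embryos (± SD), and its log2 fold change was -1.07 (SE 0.36). Ptger4 divided its counts between 2 protein-coding transcripts, ENSMUST00000047379.14 with 61.4% and ENSMUST00000120563.1 with 38.1%. The first averaged 17.0 ± 13.8 and 12.0 ± 10.5 CPM in the arms (log2 fold change -0.53, SE 0.32). The second averaged 12.7 ± 11.3 and 5.34 ± 6.35 CPM (log2 fold change -1.25, SE 0.38). In the authors' deposited table over all embryos the log2 fold changes of these transcripts of Ptger4 were -0.45 and -1.32, that of ENSMUST00000155072.7 was -0.98 and that of ENSMUST00000025019.8 was -1.05. The authors' adjusted p from DESeq2 was 0.889, 0.0575, 0.0471 and 0.131 in that order. In the transcript fit made here, the adjusted p from edgeR was 0.921, 0.160, 0.0370 and 0.264. Of these 4 transcripts ENSMUST00000155072.7 alone was under 0.05 in both. Both fits use the embryos and counts that chose the genes, so these values are a description and carry no test.

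Ric8b and Irak3 spread their few counts more evenly. Of Ric8b's counts 41.8% were on ENSMUST00000095385.4 and 32.5% on ENSMUST00000038523.14, both protein-coding. The first averaged 2.64 ± 4.13 and 0.939 ± 1.47 CPM in the arms (± SD, n = 56 and 55), and the second 1.88 ± 4.27 and 0.377 ± 0.954 CPM. Of Irak3's counts 31.7% were on ENSMUST00000145665.7, 25.3% on ENSMUST00000020448.10 and 23.8% on the retained-intron ENSMUST00000143100.1. The protein-coding ENSMUST00000020448.10 averaged 1.70 ± 2.40 and 0.354 ± 0.976 CPM, whereas ENSMUST00000143100.1 averaged 0.956 ± 1.08 and 0.949 ± 1.20 CPM. None of these transcripts reached the low-count filter on its own.

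**Figure D3:**
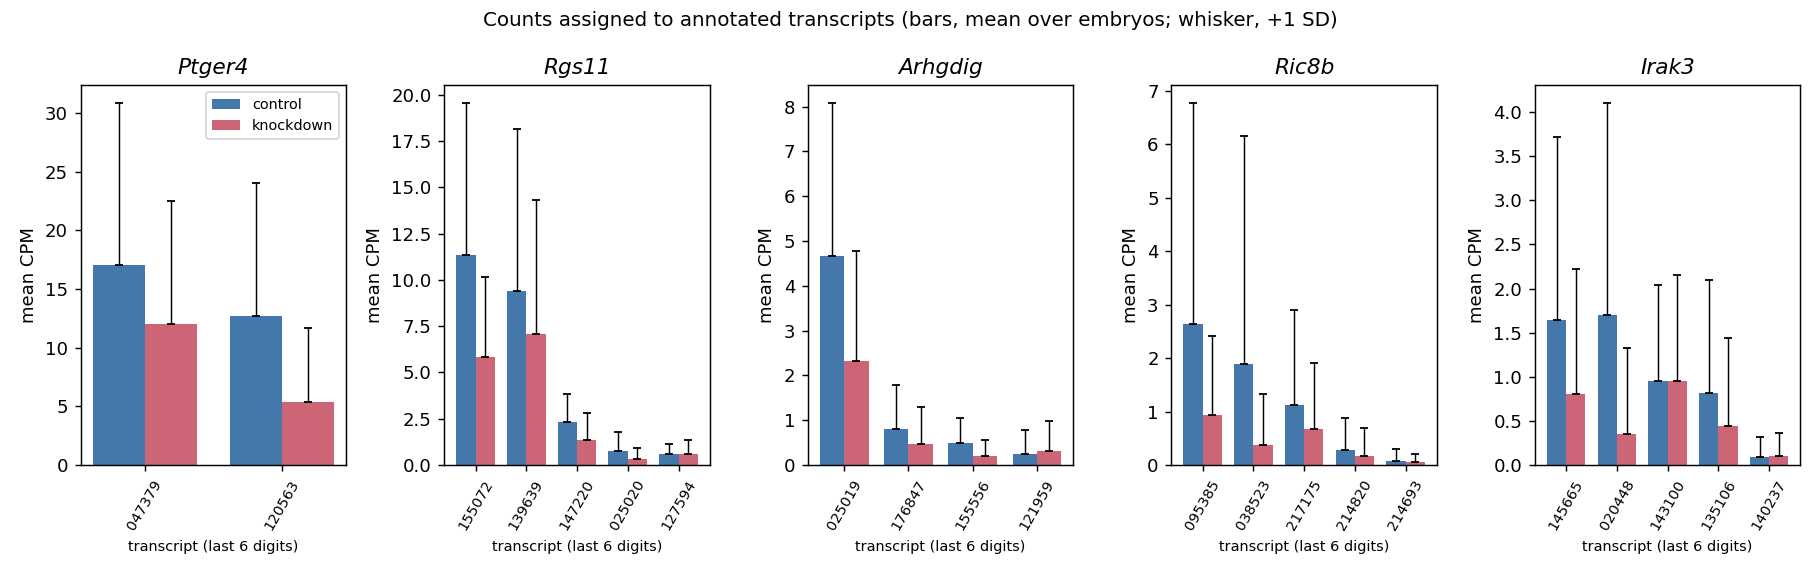
Mean CPM (linear axis from 0, a separate scale for each gene) of the most abundant annotated transcripts of each of the 5 genes in 56 control and 55 knockdown embryos, with a whisker of 1 SD above the mean. Transcripts are named by the last digits of their identifiers. The first Rgs11 transcript differs more between the arms (11.4 and 5.81 CPM) than the second (9.42 and 7.08 CPM), and the third of Irak3 is level (0.956 and 0.949 CPM).

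How a gene's counts divide among transcripts was not used in the choice, and it was tested for the 2 genes with at least 2 transcripts past the filter. In Ptger4 the share of ENSMUST00000047379.14 was 57.7 ± 28.9% (SD, n = 56) in controls and 68.0 ± 30.2% (SD, n = 55) in knockdown embryos. Within experiments the shift was 9.92, 22.4 and 10.5 percentage points, on average 12.5 (permutation test within experiments, two-sided, p = 0.0294, adjusted p = 0.0588). In Rgs11 the share of ENSMUST00000155072.7 was 45.8 ± 21.3% (SD, n = 56) and 39.1 ± 21.8% (SD, n = 55). The shifts were -4.78, -21.2 and -4.94 points, on average -7.88 (permutation p = 0.0625, adjusted p = 0.0625). Neither shift passed the adjusted threshold, and both had 1 direction in all 3 experiments with the largest value in experiment 2.

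Whether the 5 genes varied with the residual level of Nr5a2 from embryo to embryo was examined within each of the 6 groups, on log2 CPM. The 30 correlations had Pearson's r from -0.476 to 0.509, 15 positive and 15 negative. By permutation 2 values of r had an unadjusted p under 0.05, both of Irak3, and none had an adjusted p under 0.05 (smallest 0.683). Of Spearman's coefficients 1 had an unadjusted permutation p under 0.05, also of Irak3, and none an adjusted p under 0.05. In knockdown embryos of experiment 1 Irak3 had r = 0.509 (Spearman's coefficient 0.453, n = 16, permutation p = 0.0412 and 0.0815), and r = 0.145 once the 2 embryos with Nr5a2 values farthest from the median were left out. In control embryos of experiment 3 it had r = 0.402 (Spearman's coefficient 0.301, n = 25, permutation p = 0.0455 and 0.143), and 0.321 without the 2 farthest. In knockdown embryos of experiment 3 it had r = 0.359 (Spearman's coefficient 0.415, n = 23, permutation p = 0.092 and 0.0481), and 0.299 without the 2 farthest. Ptger4 had r between -0.226 and 0.0226, Rgs11 between -0.276 and 0.368, Ric8b between -0.336 and 0.286, Arhgdig between -0.476 and 0.0676, and Irak3 between -0.127 and 0.509.

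The 5 genes were also set against each other, in 10 pairs and the same 6 groups. Of these 60 correlations 38 were positive, 8 had an unadjusted permutation p under 0.05 and none an adjusted p under 0.05 (smallest 0.116). Values of 2 genes from 1 library share its depth and its scaling. Rgs11 and Arhgdig, the overlapping pair, had r of 0.559 and 0.575 in control and knockdown embryos of experiment 1, 0.132 and -0.064 in experiment 2, and 0.555 and 0.503 in experiment 3, so r was above 0.5 in both arms in 2 of the 3 experiments. The corresponding Spearman's coefficients were 0.585, 0.579, 0.0357, 0.209, 0.624 and 0.303, and the r without the 2 farthest embryos 0.424, 0.436, -0.238, 0.208, 0.579 and 0.173. When only transcripts without a shared 31-base word were counted, which was decided after these values were seen, r was 0.551, 0.528, 0.659, -0.288, 0.418 and 0.571 in the same order. Of those 6, controls of experiment 1 and knockdown embryos of experiment 3 passed adjustment over the 6 (permutation adjusted p = 0.0193 for both, Spearman's coefficient 0.384 and 0.400), and their r without the 2 farthest embryos was 0.155 and 0.220, so both rest on a few embryos.

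Ptger4 and Rgs11, alone of the pairs, had 1 sign in all 6 groups. Their r was negative, from -0.421 in controls of experiment 3 to -0.0873 in knockdown embryos of experiment 1. Without the 2 farthest embryos it was 0.035 in controls of experiment 1 and negative in the other groups, so the single sign did not hold there. Ric8b and Irak3 had a positive r in 5 of 6 groups, with 0.951 in the 7 controls of experiment 2 (Spearman's coefficient 0.714, exact permutation p = 0.00714 and 0.0881, adjusted p = 0.143 and 0.498) and 0.368 there without the 2 farthest embryos. The exception was knockdown embryos of experiment 3, with -0.291. Ptger4 with Ric8b, Ptger4 with Irak3 and Rgs11 with Ric8b also had a positive r in 5 of 6 groups.

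**Figure D4:**
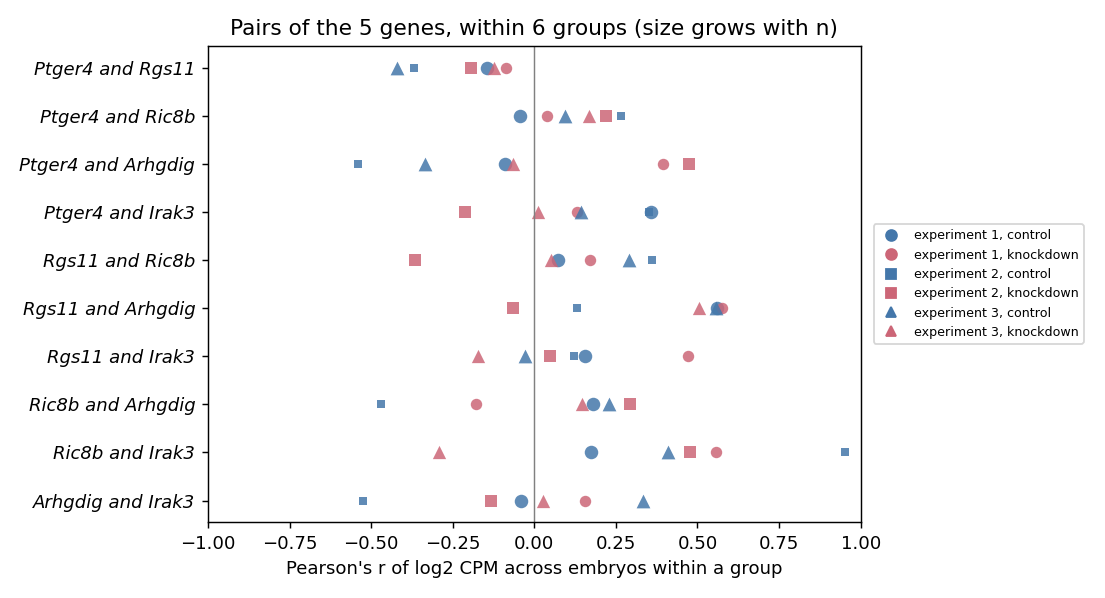
Pearson's r of log2 CPM across embryos for the 10 pairs of the 5 genes, within each of 6 groups of experiment (shape) and arm (colour), with larger symbols for more embryos. Ptger4 and Rgs11 lie left of 0 in all 6 groups, and Rgs11 and Arhgdig lie between 0.503 and 0.575 in experiments 1 and 3 and near 0 in experiment 2.

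The genes most like each of the 5 across embryos were sought among 7204 well-measured genes, by Pearson's r of log2 CPM over 111 embryos after centring within the 6 groups. For Ptger4 they were Msmo1 (r = 0.641), Klf10 (0.615) and Cyp4f39 (0.600). For Rgs11 they were Zfp263 (0.614), Nsun2 (0.598) and Rrp1 (0.596). Arhgdig had Snx1 (0.468), Slc19a1 (0.467) and Zfp825 (0.446), Ric8b had Tyk2 (0.416), Zfp820 (0.370) and Nr1d2 (0.370), and Irak3 had Malt1 (0.360) and Pramel31 (0.354). The r of these partners was lower for the 3 genes with the fewest counts. Genes that are alike in this sense share libraries and depth, and none of those named passed the edgeR test of knockdown against control (smallest adjusted p = 0.508, for Pramel31).

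The other genes of the same pathways were counted in 7 lists with 271 genes besides the 5, of which 160 had enough counts to be tested. None was called lower and none higher by edgeR's quasi-likelihood test, beside 0.468% and 0.632% of all genes. At an unadjusted p under 0.05 there were 6 lower and 9 higher, where 9.5% of all genes had such a p in either direction. limma-voom called 0 and DESeq2 called 0 lower and 1 higher. The median log2 fold change of the 160 was 0.021, and that of all genes 0.019. By list, the tested genes numbered 12 of prostaglandin receptors and synthesis, 10 of RGS proteins and their partners, 25 of heterotrimeric G proteins and chaperones, 28 of cyclic AMP signalling, 31 of G protein coupled receptors, 23 of small GTPases and their dissociation inhibitors and 32 of Toll and interleukin-1 receptor signalling.

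The gene with the smallest p in each list is given with its value, and none passed. Among receptors it was Fzd2, a Wnt receptor, which averaged 11.3 ± 8.43 and 23.5 ± 30.5 CPM in the arms (± SD, n = 56 and 55, log2 fold change 0.88, SE 0.27, edgeR adjusted p = 0.0890). For prostaglandin synthesis it was Ptges3, a co-chaperone with prostaglandin E synthase activity (0.13, SE 0.071, adjusted p = 0.577), and for RGS proteins Rgs10 (-0.34, SE 0.19, adjusted p = 0.605). Gna11, an alpha subunit of the Gq class, had 0.30 (SE 0.11, edgeR adjusted p = 0.225), and the adenylyl cyclase Adcy7 had -0.60 (SE 0.27, adjusted p = 0.399). The small GTPase Cdc42 had 0.30 (SE 0.10, edgeR adjusted p = 0.162) and the kinase Irak1 0.38 (SE 0.14, adjusted p = 0.222).

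Close relatives of the 5 genes showed no called difference in the same fit. Ptger3, the prostaglandin E receptor that couples to inhibitory G proteins, averaged 7.59 ± 5.26 and 5.93 ± 3.93 CPM in the arms (± SD, n = 56 and 55, log2 fold change -0.30, SE 0.22, edgeR adjusted p = 0.785), and Ptger1 and Ptger2 were at 0.240 and 0.247 CPM in controls, too low to be tested. Ric8a, the chaperone for the other classes of alpha subunit, had 7.07 ± 4.75 and 6.46 ± 4.78 CPM (-0.10, SE 0.22, edgeR adjusted p = 0.967). Arhgdia, the widely expressed GDP dissociation inhibitor, was at 96.9 ± 47.4 and 96.4 ± 46.4 CPM (-0.014, SE 0.13, edgeR adjusted p = 0.993), and Arhgdib at 0.156 CPM in controls. Irak2 had 73.2 ± 26.5 and 75.1 ± 28.4 CPM (0.018, SE 0.12, edgeR adjusted p = 0.988), and Irak4, at 1.59 CPM in controls, was not tested. Of the relatives of Rgs11, Rgs9 had 0.14 (SE 0.24, edgeR adjusted p = 0.953) and its partner Gnb5 0.064 (SE 0.24, adjusted p = 0.985), while Rgs6 and Rgs7 were at 0.377 and 0.749 CPM in controls. Whether a relative differs from its counterpart in response was not tested, since the 5 were picked for being lower.

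The genes beside the 5 were counted too. The annotation places 36 other genes within 100 kb of them, 16 of these were tested, and edgeR called 0 lower and 0 higher, beside 0.468% and 0.632% of all genes. An unadjusted p under 0.05 was found for 3 of the 16, beside 9.5% of all genes. Those 3 were Prkaa1 beside Ptger4 (-0.42, SE 0.17, edgeR adjusted p = 0.294), Luc7l beside the Rgs11 and Arhgdig locus (-0.31, SE 0.12, adjusted p = 0.247) and Tmem263 beside Ric8b (0.39, SE 0.14, adjusted p = 0.186). Genes that overlap one of the 5 on the other strand had log2 fold changes of 0.042 (SE 0.14) for Ttc33, which overlaps Ptger4, and -0.037 (SE 0.26) for Tmbim4, which overlaps Irak3. Axin1 (-0.032, SE 0.072) and Fam234a (0.062, SE 0.11), the tested genes closest to Rgs11 and Arhgdig at 3.37 kb from Arhgdig and 0.498 kb from Rgs11, were also near 0.

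**Figure D5:**
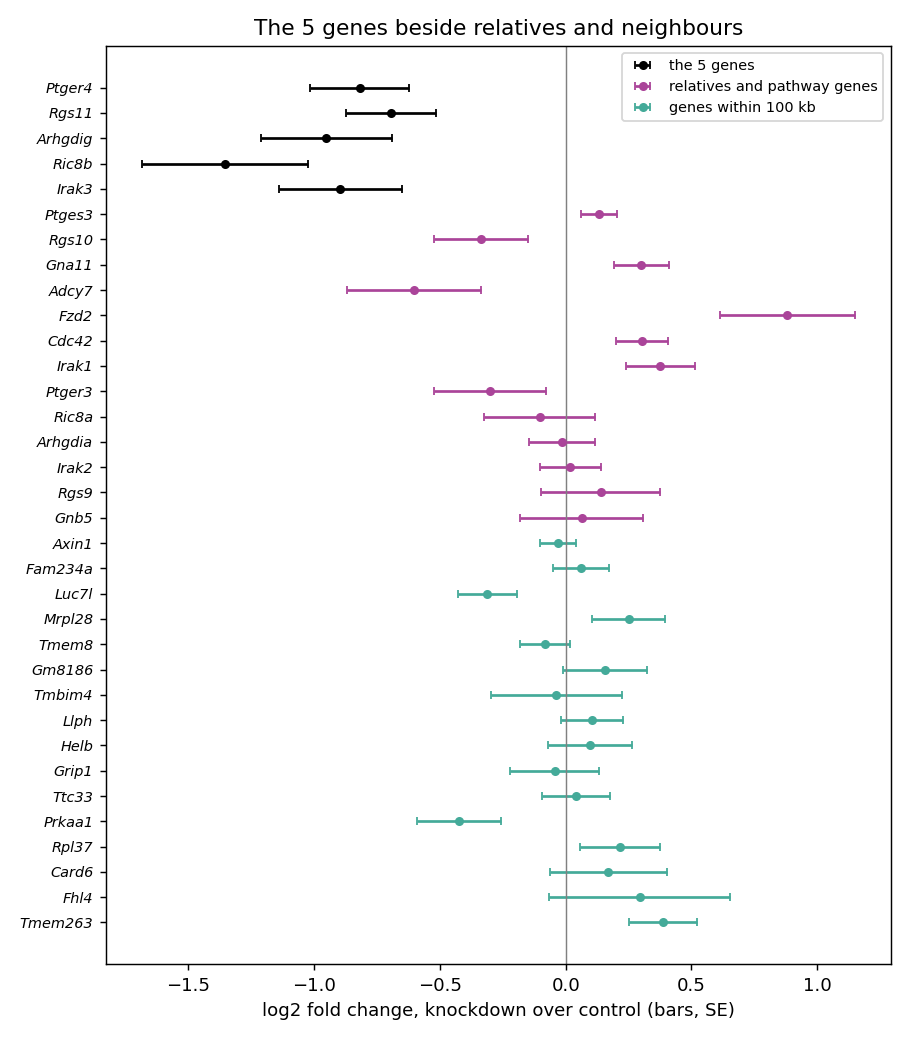
Log2 fold change of knockdown over control with bars of 1 SE from edgeR for the 5 genes (black), for tested relatives and for the gene with the smallest p in each pathway list (purple), and for tested genes within 100 kb (green). The 5 genes, which were picked for being lower, lie between -1.36 and -0.69, and the others between -0.60 (Adcy7) and 0.88 (Fzd2).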

How the data were processed

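For 111 embryos the authors deposited estimated counts (expected counts) of each transcript without normalization, per the file headers and as the values show. Per the submitters' processing notes they used kallisto 0.46.1 after Trim Galore 0.6.2 and bcl2fastq, DESeq2 1.32.0 and R 3.5.1; the notes name mm10 and hg19. The transcript annotation is not given in the sources used. Their comparison tables, deposited per transcript, hold log2 fold changes and p-values, and the values quoted as the authors' are from the one over all embryos; all others were fitted here. Groups were taken from the treatment label (arm) and the title (experiment). No column of per-sample values was left unmatched (0), and no library was counted more than once (highest r between embryos 0.974).

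The 119353 transcripts were summed to 36134 genes, 117282 of them by the gene in the authors' deposited table and 345 by GENCODE M21. The 1726 transcripts without a gene held a median of 0.567% of counts and were left out. Deposited positions matched GENCODE M21 for 2.97% of genes, so positions are from GENCODE M21 (GRCm38). Sums were rounded and tested in R 4.3.3 with edgeR 4.0.16 and, as an alternative, limma 3.58.1. Low genes were removed by filterByExpr (groups: arms), libraries were scaled by TMM, and the quasi-likelihood test had experiment as a covariate, with p adjusted by Benjamini-Hochberg over all genes at 0.05. CPM use TMM-scaled library sizes; TPM divide the counts of each transcript by its GENCODE M21 length, known for 97.8% of transcripts. Each SE is the fold change over the root of F. Correlations used log2 CPM with a prior count of 2, and permutation tests 100000 resamples (exact for 7 embryos), in Python 3.11.15 with SciPy 1.17.1. In data simulated for knockdown against control with 13451 features, 100% of 100 features changed 2-fold and 29% of 100 changed 1.5-fold were called, with 4 false calls. Every simulated feature had the same spread between embryos. The shares called therefore need not hold for genes with a larger spread, such as Ric8b (SE 0.33).

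The 5 genes, the pathway and marker lists and the tests were chosen with earlier results of these data known. Named besides the 5 and Nr5a2 were, from each pathway list, every called gene or else the one with the smallest p, the close relatives, genes within 100 kb, and for each of the 5 the 3 genes of highest r with an average log2 CPM of at least 4. 1 of those for Irak3 is not reported here. Alternatives were other scalings, no low-count filter, 1 experiment left out, a block of replicate numbers, a principal component, limma-voom and DESeq2 1.42.0. 2 more were chosen after seeing the data: leaving out the transcripts of Rgs11 and Arhgdig that share 31-base words, and leaving out control embryo 6 of experiment 2. The labels give embryos of both arms the same numbers, but of 46 same-numbered pairs only 16 had a correlation of deviations over 0.1, so the numbers were not taken to pair embryos.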

Additional observations from a re-analysis of the deposited data

Results flagged for a closer look

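Ric8b was far higher in 1 of the 7 control embryos of experiment 2 than in the others. Embryo 6 had a log2 CPM of 3.89, or 14.4 CPM from 54 counts, while the other 6 lay between 1.00 and 2.83 CPM, and its gap to the nearest of them exceeded Dixon's 95% critical value. Of the 5 genes this was the single flag in that group, the one group small enough to be examined. Chance alone flags about 1 in 20 for each gene examined, and 5 genes were examined, so a flag among them is more frequent than that. The same embryo also had the highest Irak3 level of the 7, at 7.75 CPM. With it, Ric8b had 3.50 ± 4.86 CPM (SD, n = 7) in these controls, and without it 1.68 ± 0.667 CPM (SD, n = 6), beside 2.01 ± 2.11 CPM (SD, n = 16) in knockdown embryos. The log2 fold change of Ric8b over all experiments was -1.24 without this embryo and -1.36 with it. The cause of its level was not tested.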

How the results depend on the processing

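Each of the 5 genes kept a negative log2 fold change over all experiments under all 13 alternatives: Ptger4 from -1.01 to -0.74, Rgs11 from -0.90 to -0.34, Ric8b from -1.47 to -0.99, Arhgdig from -1.07 to -0.83 and Irak3 from -1.46 to -0.67. They stayed inside the threshold in 9, 8, 10, 7 and 8 of the 13, in that order. These refits reuse the embryos that chose the genes, so they describe dependence on the settings and carry no test. Counts of called genes moved more. Against 63 lower and 85 higher genes, there were 391 and 574 without the low-count filter, 7 and 35 with size factors from oocyte transcripts, 9 and 14 without experiment 1, 59 and 136 without experiment 2, 11 and 31 without experiment 3, and 219 and 143 after adding principal component 1 to the model. limma-voom called 98 lower genes and DESeq2 141 higher ones. Fewer embryos enter the fits without an experiment, and for the other settings the cause was not tested. Without control embryo 6 of experiment 2 there were 52 and 85, and without the transcripts that share 31-base words 62 and 85.

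With a block for embryos of the same number, 8 genes were lower and 11 higher over 92 embryos. The log2 fold changes under this block were -1.01 for Ptger4, -0.75 for Rgs11, -0.99 for Ric8b, -1.03 for Arhgdig and -0.96 for Irak3, and none of the 5 passed. Of the 46 same-numbered pairs, 5 correlated best with their own number, and r ran from -0.364 to 0.376.

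Pathway genes called were 0 in each direction under 9 of the 13 alternatives. There were 4 higher without the filter (Fzd2, Rgs21, Rgs5 and Tlr12), 1 higher without experiment 2 (Gnaz), 1 higher (Cdc42) and 1 lower (Ikbkb) with that component in the model, and 1 higher with DESeq2 (Fzd2). Control embryos differed between experiments in 1720 genes, and in 2732 without the filter. Treatment by experiment, with 2 genes called, gave 1 with DESeq2 size factors in edgeR, 7 with library totals, 527 without the filter, 1 with limma-voom and 10 with DESeq2, and none of the 5 passed it under any of these. Ric8b, Arhgdig and Irak3 had medians of 8 to 28.5 counts per embryo and arm, which limits their precision more than that of Ptger4 and Rgs11, with 62 to 139.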
